A study of Citrus maxima and Citrus sinensis with 8 samples.

Results

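A set of 132 leaf genes stood lower in aluminium-treated than in control seedlings of both Citrus grandis and Citrus sinensis. The members were chosen on FPKM + 1, a level that scales each gene's fragments to its length and to the library total. In each species the lower control library had to be at least 1.5 times the higher aluminium library, and the mean over the 8 libraries had to be at least 1 and below 500 FPKM. Of 30297 gene IDs in the tables, 16221 lay within these bounds, so the 132 members were 0.814% of them. The aluminium falls described below are the values that chose the members. They are given as a description, with no test.

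Aluminium dissolves in acid soils and injures roots first, where it slows elongation and hampers the uptake of water and nutrients. Leaves of affected plants commonly show slower growth and lower photosynthesis. Citrus species differ in tolerance, and C. sinensis is generally held to tolerate aluminium better than C. grandis.

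The study sequenced leaf RNA of seedlings of both species on an Illumina instrument. The groups were C. grandis (pummelo, listed under the synonym Citrus maxima) with aluminium for 18 weeks and as control, and C. sinensis (sweet orange) with aluminium for 18 weeks and as control. The aluminium concentration and the exact age of the seedlings were not given in the sources used here. Each group had 2 libraries, and each library came from a pool of leaves of 5 seedlings grown 1 to a pot, so no value belongs to a single plant and p-values measure the spread between libraries. The 2 libraries of C. grandis aluminium differed little more than counting error allows, so that pair shows little of any spread between pools. Whole leaves were sampled, and fewer cells of a type cannot be told apart from less RNA per cell.

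The library totals recovered from the FPKM were 16443205 to 19794247 reads. One set of IDs served both species, so a sequence difference between them can cost a gene reads in 1 species, which bears on every species difference below. No gene name goes with an ID in the tables, so no role of a member is given here and the leaf label was not checked against marker genes. Members are therefore named by ID. The quantities below are of 3 kinds: a level in FPKM, a difference on the log2(FPKM + 1) scale, and the separation, which is the lower control over the higher aluminium library on FPKM + 1.

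The condition on C. grandis was met by 944 genes, 5.82% of those within the bounds, and the condition on C. sinensis by 410 genes, 2.53%. The 132 members were 14.0% of the C. grandis list and 32.2% of the C. sinensis list. The mirrored rule, with aluminium above control in both species, was met by 219 genes. These were 19.3% of the 1133 genes raised in C. grandis and 35.4% of the 619 raised in C. sinensis. Genes that moved past the ratio in opposite directions were fewer, with 40 lowered in C. grandis and raised in C. sinensis and 5 the other way round.

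The edge of the set was gradual. Cs1g20420 was the member nearest the threshold, with a separation of 1.5 in C. grandis and 1.52 in C. sinensis. Its level was 58.6 and 58.8 FPKM in C. grandis aluminium leaves against 88.8 and 96.9 FPKM in the controls. The C. sinensis libraries had 35.9 and 43.7 FPKM with aluminium and 66.7 and 73.6 FPKM in the controls. Cs7g03670 was next, with separations of 1.78 in C. grandis and 1.5 in C. sinensis. Just outside lay Cs6g06730 and Cs2g26950, with separations of 1.53 and 1.56 in C. grandis and of 1.4998 and 1.4994 in C. sinensis. The smaller of the 2 separations had a median of 1.69 over the members and reached 5.72, and 28 members kept a separation of at least 2 in both species.

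The bounds on the mean left out 4 genes that met both conditions on the ratio. orange1.1t06019 was the more abundant of the 2 above the upper bound. It stood at 73.8 and 74.9 FPKM in C. grandis aluminium leaves against 689 and 673 FPKM in the controls. Its C. sinensis levels were 265 and 222 FPKM with aluminium and 1045 and 1410 FPKM in the controls. orange1.1t05560 fell by 3.87 on the log2 scale in C. grandis and by 1.19 in C. sinensis. The other two, Cs8g08180 and Novel00466, averaged under 1 FPKM.

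The deepest falls shared by both species were those of Novel00124 and Cs5g34830, ranked by the smaller of the 2 species' falls. Novel00124 stood at 0.05 and 0.104 FPKM in C. grandis aluminium leaves, against 4.54 and 13.8 FPKM in the controls. The C. sinensis libraries held 0.205 and 0.36 FPKM with aluminium, against 12.5 and 17.7 FPKM in the controls. All 4 aluminium libraries were below 1 FPKM and all 4 control libraries at 4.54 or more, although the C. grandis controls were themselves unequal. In recovered reads, 3 with aluminium and 384 in the controls of C. grandis gave a control-to-aluminium ratio of 124 (95% counting interval 42.1 to 603). In C. sinensis, 12 and 686 reads gave a ratio of 52.5 (29.8 to 102). Such intervals cover counting error only.

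Cs5g34830 had 1.45 and 2.23 FPKM in C. grandis aluminium leaves and 62.7 and 17.6 FPKM in the controls. The C. sinensis libraries had 3.14 and 3.18 FPKM with aluminium and 23.0 and 23.3 FPKM in the controls. Its log2 change was -3.61 in C. grandis and -2.54 in C. sinensis, with separations of 5.76 and 5.72. The C. grandis controls lay far apart, while the C. sinensis controls were nearly equal. Falls of at least 2 on the log2 scale in both species were seen in these 2 members, Cs1g05770 and Cs8g19450. Cs1g05770 fell by 3.18 in C. grandis and by 2.38 in C. sinensis, where its aluminium libraries still held 21.4 and 16.8 FPKM.

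**Figure D1:**
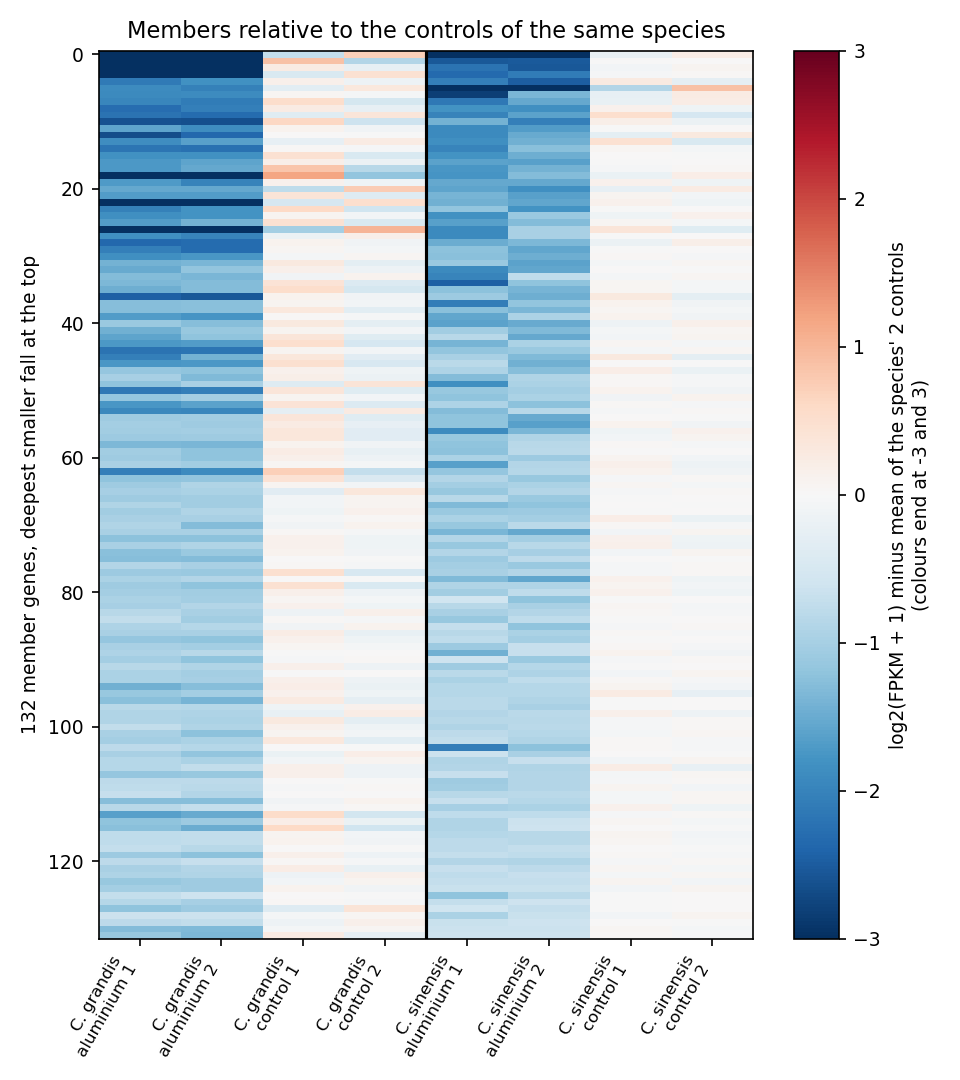
Each row is 1 of the 132 members and each column a library; colour gives log2(FPKM + 1) minus the mean of the 2 controls of the same species, with colours ending at -3 and 3. All aluminium columns are blue by the rule, with the deepest rows at the top, and the C. grandis control columns are the less even of the controls.

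Over all members, the median log2 change was -1.16 in C. grandis and -1.03 in C. sinensis. The medians of the 16327 genes with a mean of at least 1 FPKM were -0.09 and 0.08, so the falls of C. sinensis stand on a baseline that differs from that of C. grandis. The middle 50% of the members changed by -1.72 to -0.97 in C. grandis and by -1.44 to -0.88 in C. sinensis. A fall of at least 1 was seen in 90 members in C. grandis, where 3.83% of the genes tested fell that far, and in 73 members in C. sinensis, where 1.2% did. In 64 members the fall reached 1 in both species, and in 33 it reached 1 in neither. As a share of control FPKM, the median member kept 39.0% in C. grandis aluminium leaves and 46.2% in C. sinensis aluminium leaves. The range over members was 0.84% to 63.3% in C. grandis and 1.24% to 63.3% in C. sinensis.

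The most abundant members were Cs3g03680 and Cs2g20010. Cs3g03680 had 248 and 251 FPKM in C. grandis aluminium leaves against 640 and 405 FPKM in the controls. In C. sinensis leaves there were 215 and 308 FPKM with aluminium and 728 and 880 FPKM in the controls. The C. sinensis controls were the highest libraries of this gene, and the aluminium libraries of the 2 species overlapped. Cs2g20010 had 103 and 105 FPKM in C. grandis aluminium leaves and 514 and 454 FPKM in the controls. In C. sinensis leaves there were 163 and 173 FPKM with aluminium and 360 and 390 FPKM in the controls. Aluminium and control libraries were far apart in both species, and the C. grandis libraries were the higher among controls and the lower with aluminium.

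Whether scarce members fell as far as abundant ones depended on the scale. The 24 members with a control mean of at least 100 FPKM had median log2 changes of -1.24 in C. grandis and -1.10 in C. sinensis. For the 21 members below 10 FPKM these medians were -1.18 and -1.07, on a scale that understates changes of low genes. As a share of control FPKM, the scarce members kept medians of 29.0% in C. grandis and 38.4% in C. sinensis, and the abundant ones 41.5% and 46.7%. Because the rule used FPKM + 1, a scarce gene had to lose a larger share of its FPKM to enter. The lower shares of the scarce members are thus partly set by the rule. Spearman's rho between the control level and the smaller fall was 0.05 across the 132 members, whose values come from the same libraries. Together the members held 0.458% of summed FPKM in each C. grandis aluminium library, against 1.37% and 1.15% in the C. grandis controls. In C. sinensis they held 0.70% and 0.758% with aluminium, against 1.56% and 1.52% in the controls.

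**Figure D2:**
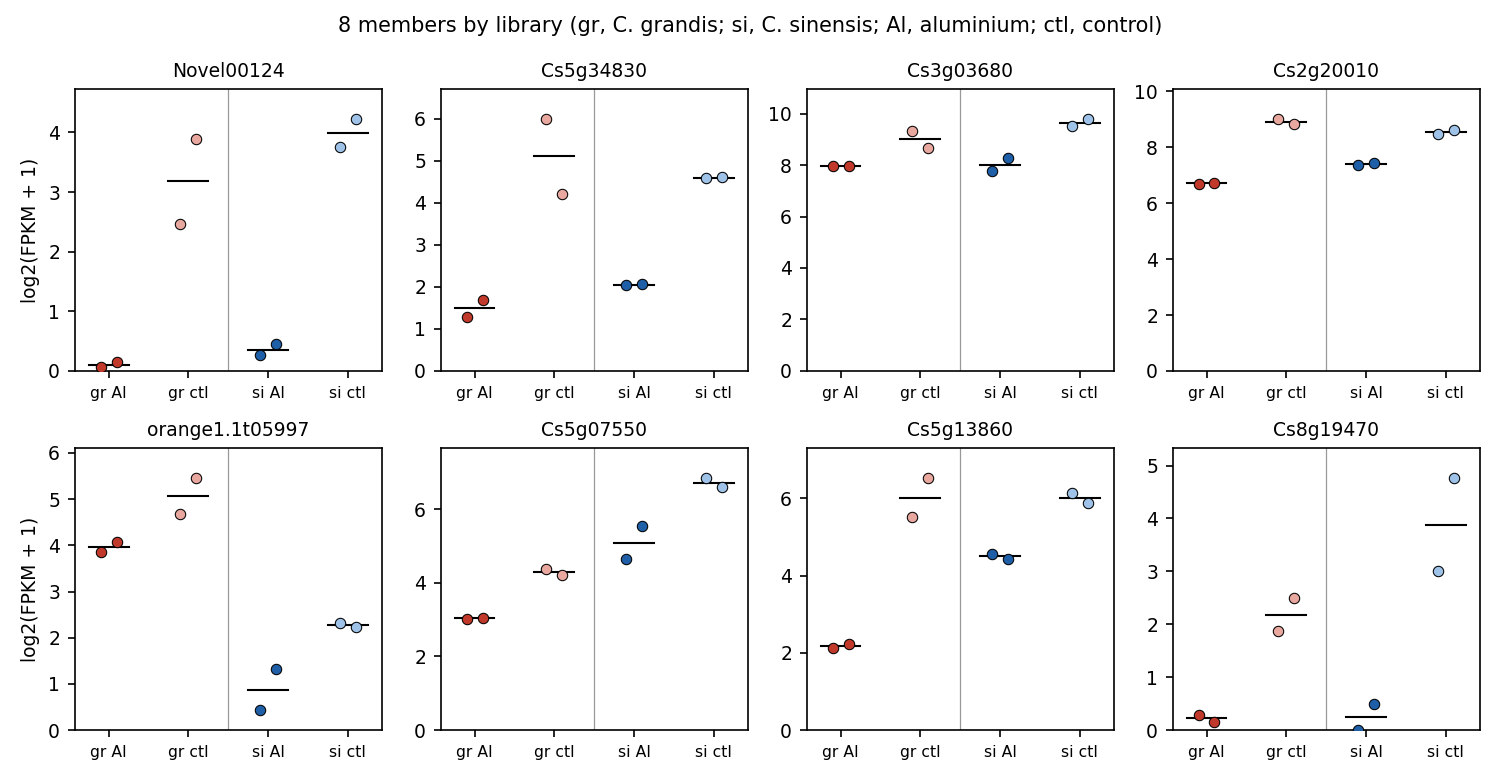
Levels of 8 members in log2(FPKM + 1), with 1 point per library and a line at the mean of the 2 libraries of a group. The aluminium points lie below the control points of the same species in every panel, orange1.1t05997 is high in C. grandis and Cs5g07550 in C. sinensis, and Cs5g13860 reaches similar control levels in both.

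The falls of the 2 species were of like order for most members. In 101 of the 132 the log2 changes differed by less than 0.5 between the species. How common so close a pair of changes was among all genes tested was not counted. The fall was the larger in C. grandis for 89 members and in C. sinensis for 43, an order that depended on scaling. With libraries centred on their median the counts were 53 and 79, and after quantile normalization 64 and 68. Centring also turned the order of the median changes, to -1.11 in C. grandis and -1.17 in C. sinensis. Without replicate 1 of the C. grandis controls the counts were 71 and 61. Across the members, Pearson's r between the falls was 0.65 and Spearman's rho 0.62 (132 genes of the same 8 libraries, both falls bounded by the rule). Since the rule used both falls, their difference was not tested.

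The 2 falls were apart by at least 1, with the larger one in C. grandis, in 8 members (4 after centring, and 17 without C. grandis control replicate 2), and in 1 member, Cs8g19470, the larger one was in C. sinensis (0 members without C. sinensis control replicate 2, and 3 without C. sinensis aluminium replicate 2). Cs5g13860 differed most. It had 3.38 and 3.68 FPKM in C. grandis aluminium leaves against 44.4 and 90.2 FPKM in the controls, a log2 change of -3.83. In C. sinensis leaves there were 22.7 and 20.7 FPKM with aluminium and 69.2 and 57.8 FPKM in the controls, a log2 change of -1.5. The controls of the 2 species overlapped for this gene, and the aluminium libraries did not. The gene was chosen for this difference, which is given with no test.

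Cs8g19470 had 0.228 and 0.118 FPKM in C. grandis aluminium leaves and 2.64 and 4.64 FPKM in the controls, a log2 change of -1.95. In C. sinensis leaves there was no read in 1 aluminium library, 0.41 FPKM in the other, and 7.09 and 26.0 FPKM in the controls, a log2 change of -3.64. With aluminium the gene was thus near its detection limit in both species, at 3 reads in C. grandis and 4 in C. sinensis. The control-to-aluminium ratio of reads was 21.3 in C. grandis (95% counting interval 6.97 to 106) and 75.7 in C. sinensis (29.3 to 280), and these intervals overlap. Among the 8 members with the larger fall in C. grandis, Cs8g01840 had unequal C. grandis controls at 172 and 709 FPKM, over aluminium libraries at 30.9 and 30.6 FPKM.

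**Figure D3:**
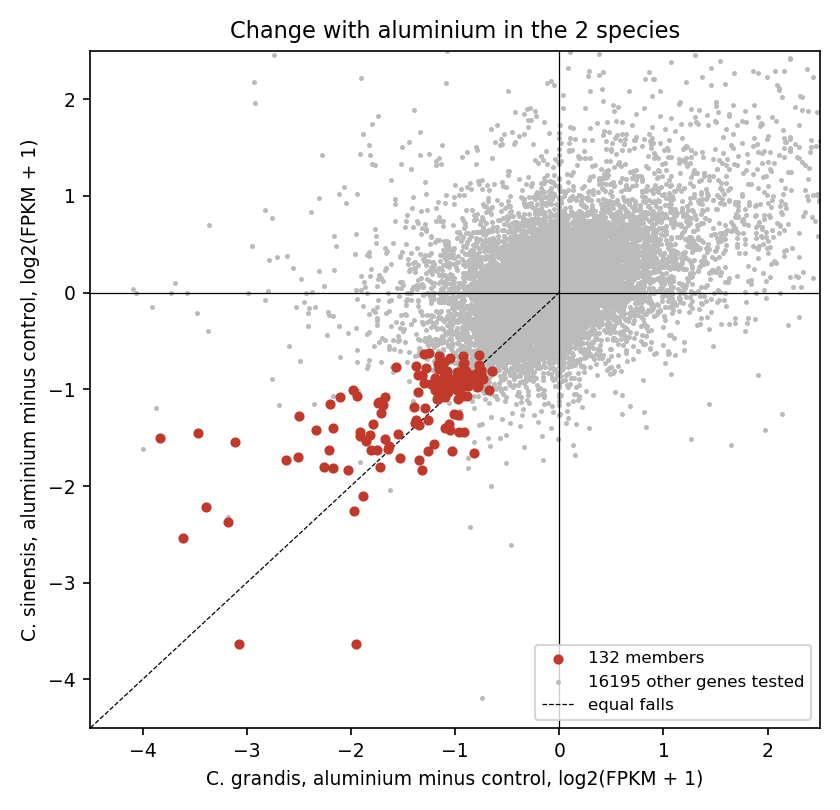
Change with aluminium on the log2(FPKM + 1) scale in C. grandis (horizontal) and C. sinensis (vertical); red points are the 132 members, grey points the 16195 other genes tested, and the dashed line marks equal falls. The members fill the lower left by the rule, with 89 of them on the side of the larger fall in C. grandis, against 53 after median centring; 196 of the genes tested lie outside the axes.

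The level of the members in one species against the other was not fixed by the rule. It was tested within each treatment with limma over all 16327 genes. The rule did use the same 8 libraries, and its conditions passed 944 genes in C. grandis and 410 in C. sinensis. The choice of members can therefore bear on their species difference, so these tests are not independent of the rule. How far it does was not tested. The members were mostly lower in C. grandis. In control leaves their median difference, C. grandis minus C. sinensis, was -0.47 on the log2 scale, where the median of all genes tested was 0.17. With aluminium the medians were -0.57 for the members and 0.03 for all genes. The median level of the members was 10.9 FPKM in C. grandis aluminium leaves and 30.9 FPKM in C. grandis controls. It was 18.6 FPKM in C. sinensis aluminium leaves and 40.7 FPKM in C. sinensis controls.

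At a limma adjusted p below 0.05, 22 members were higher and 56 lower in C. grandis in control leaves. These were 16.7% and 42.4% of the members, against 29.9% and 18.9% of all genes tested. In aluminium leaves 10 members were higher and 62 lower in C. grandis, or 7.58% and 47.0%, against 19% and 20.3% of all genes. In either direction the members were called in 59.1% of cases in control leaves, where 48.9% of all genes were, and in 54.5% with aluminium, where 39.3% were. A difference of at least 1 on the log2 scale was called in 31 members lower and 8 higher in C. grandis in control leaves. With aluminium these counts were 31 lower and 3 higher. The shares of all genes tested called at this size were not counted, so these counts have no background beside them.

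Scaling changed the split in control leaves but not its direction. With libraries centred on their median, 13 members were higher and 65 lower in C. grandis, and after quantile normalization 15 and 59. After centring, the median of all genes in control leaves was -0.01 and that of the members -0.65. The calls in control leaves numbered 48 without replicate 1 of the C. sinensis controls and 47 without replicate 2, where 31.2% and 30.4% of all genes were called. The calls in aluminium leaves numbered 41 without replicate 1 of C. grandis aluminium and likewise 41 without replicate 2, where 18.6% and 19.1% of all genes were called. They also numbered 41 with those 2 libraries, which differ little, merged into 1. In each of these fits more members were lower than higher in C. grandis. Members had a higher mean level than the genes tested, with medians of 25.1 and 12.3 FPKM, and a somewhat larger spread within groups, at 0.196 and 0.169 on the log2 scale. The part of either in the share called was not tested.

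Most called species differences had the same direction in both treatments. A member with like falls in both species keeps a like species difference, and the falls lay within 0.5 of each other in 101 members. The rule used both falls, and its part in the like directions was not tested. In 53 members C. grandis was called lower in both, in 10 it was called higher in both, and 47 were called in neither. Of the rest, 13 were called in control leaves only, 7 in aluminium leaves only, and 2, Cs2g20010 and Cs7g11670, in opposite directions. The opposite calls depended on scaling. After median centring the limma adjusted p in control leaves was 0.241 for Cs2g20010 and 0.234 for Cs7g11670. After quantile normalization it was 0.0398 and 0.151. A call in 1 treatment and not in the other does not show that the species difference changed. The shares of all genes tested with such joint calls were not counted. The 53 members that were lower in C. grandis throughout kept a median 43.9% of control FPKM in C. grandis and 50.3% in C. sinensis, and the 47 called in neither kept 32.4% and 38.7%. Under the rule, members with uneven libraries needed a deeper mean fall to enter, and uneven libraries also hinder a call. The part of this in the contrast was not tested. In 88 members all 4 control libraries lay above all 4 aluminium libraries, an order that the rule already set within each species. In 19 members both aluminium libraries of C. sinensis still lay above both controls of C. grandis. The reverse, with aluminium libraries of C. grandis above the controls of C. sinensis, was seen in 2 members, orange1.1t05997 and Cs5g28710. The shares of all genes tested with these orders of libraries were not counted.

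Cs5g07550 showed the largest called difference to the C. sinensis side in control leaves. Its controls stood at 19.6 and 17.6 FPKM in C. grandis and 113 and 96.5 FPKM in C. sinensis, with a species difference of -2.43 (SE 0.27, limma adjusted p = 0.000708). With aluminium it stood at 7.13 and 7.23 FPKM in C. grandis and 23.8 and 45.4 FPKM in C. sinensis, a difference of -2.05 (limma adjusted p = 0.00176). The C. sinensis aluminium libraries thus lay above the untreated C. grandis libraries.

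orange1.1t02606 had the largest such difference in aluminium leaves. It stood there at 2.01 and 1.94 FPKM in C. grandis and 16.7 and 22.0 FPKM in C. sinensis, with a species difference of -2.76 (SE 0.16, limma adjusted p = 5.69e-05). In control leaves it had 7.21 and 6.10 FPKM in C. grandis and 41.3 and 38.8 FPKM in C. sinensis, a difference of -2.43. Groups did not overlap in either treatment.

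orange1.1t05997 was the member furthest to the C. grandis side in both treatments. In aluminium leaves it stood at 13.4 and 15.9 FPKM in C. grandis and 0.344 and 1.51 FPKM in C. sinensis, with a species difference of 3.09 (SE 0.35, limma adjusted p = 0.000914). In control leaves it stood at 24.5 and 42.6 FPKM in C. grandis and 3.98 and 3.71 FPKM in C. sinensis, a difference of 2.78 (limma adjusted p = 0.00111). Only 12 reads lay behind its C. sinensis aluminium values. Cs5g28710 followed the same order, at 15.3 and 15.7 FPKM in C. grandis and 3.01 and 5.46 FPKM in C. sinensis with aluminium, and its difference there was 1.70 (limma adjusted p = 0.00187).

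**Figure D4:**
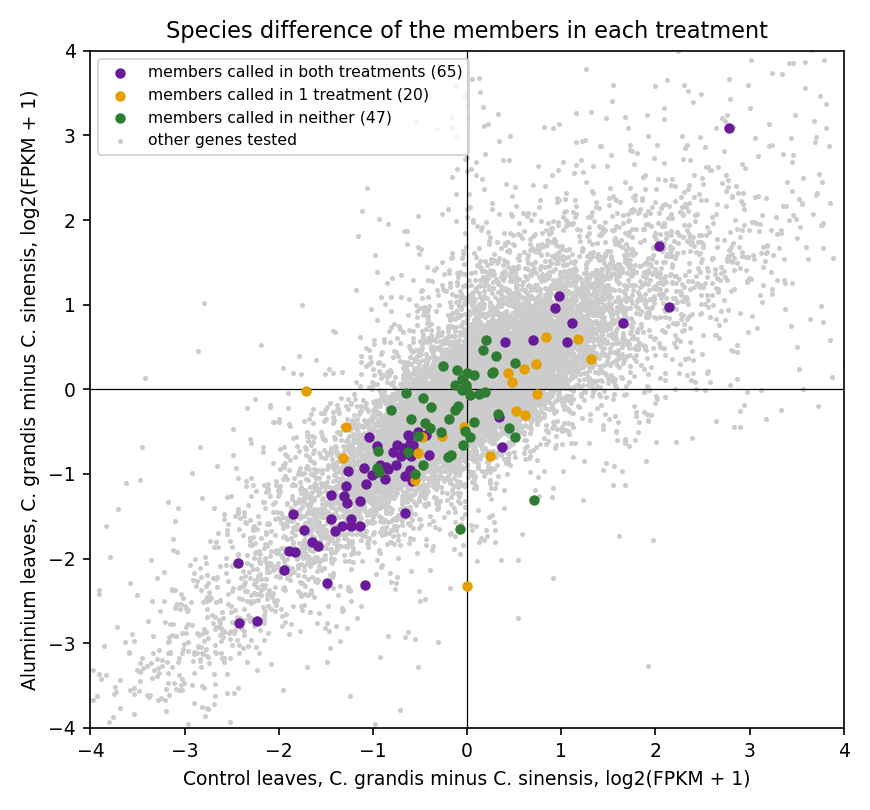
C. grandis minus C. sinensis on the log2(FPKM + 1) scale in control leaves (horizontal) and aluminium leaves (vertical) for the 132 members, coloured by whether the difference was called at a limma adjusted p below 0.05, over the other genes tested in grey. Most members lie in the lower left, where C. grandis was lower in both treatments; 173 genes tested, no member among them, lie outside the axes.

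Other lists were set beside the members for this measure, with no test of the difference between lists. The 812 genes lowered in C. grandis and not in C. sinensis had a median species difference of 0.70 in control leaves and -0.16 with aluminium. The 278 genes lowered in C. sinensis and not in C. grandis had medians of -0.94 and -0.47. The 219 genes raised in both had medians of 0.53 and 0.81. Genes lowered in 1 species alone were partly chosen through the level in that species' controls, which bears on these medians.

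The 2 libraries of a group differed most for the members in C. grandis controls. There replicate 1 was the higher for 95 of the 132 members, or 72.0%, against 48.4% of all genes tested. The median gap, in absolute terms, was 0.30 on the log2 scale for the members and 0.24 for all genes. In 15 members these controls were at least 1 apart, with replicate 1 the higher in 11. How many of all genes tested lay this far apart was not counted. In C. grandis aluminium leaves the median gap was 0.09 and no member was 1 apart. The recovered reads of that pair differed little more than counting allows, with a mean chi-square per gene of 1.77 over 16961 genes and of 1.42 over 126 members. The chi-square means of the other pairs were between 9.69 and 82.7 over all genes. In C. grandis controls the mean was 170 over the members and 58.9 over all genes, and in C. sinensis controls 22.4 and 9.69. In C. sinensis aluminium leaves the order was the reverse, at 37.5 over the members and 82.7 over all genes. What part the members' higher level has in these means was not tested.

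The median gap for the members was 0.24 in C. sinensis aluminium leaves and 0.11 in C. sinensis controls. In C. sinensis aluminium leaves replicate 1 was the lower for 75 members, or 56.8%, against 54.7% of all genes tested. A gap of at least 1 was seen there in Cs2g25850, Cs4g10710 and Cs8g04700, and among the C. sinensis controls in Cs5g32590 and Cs8g19470. Such gaps were not counted over all genes tested. With the C. grandis controls reduced to replicate 2, the median change of the members in C. grandis was -1.05, and with replicate 1 alone it was -1.32. The number of genes meeting the rule was 240 without C. grandis control replicate 2 and 259 without C. sinensis aluminium replicate 2, against 132 with all libraries. Every member was retained without the C. sinensis aluminium replicate, and 131 without the C. grandis control. The rule asks less of a group with 1 library, which adds genes by construction.

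**Figure D5:**
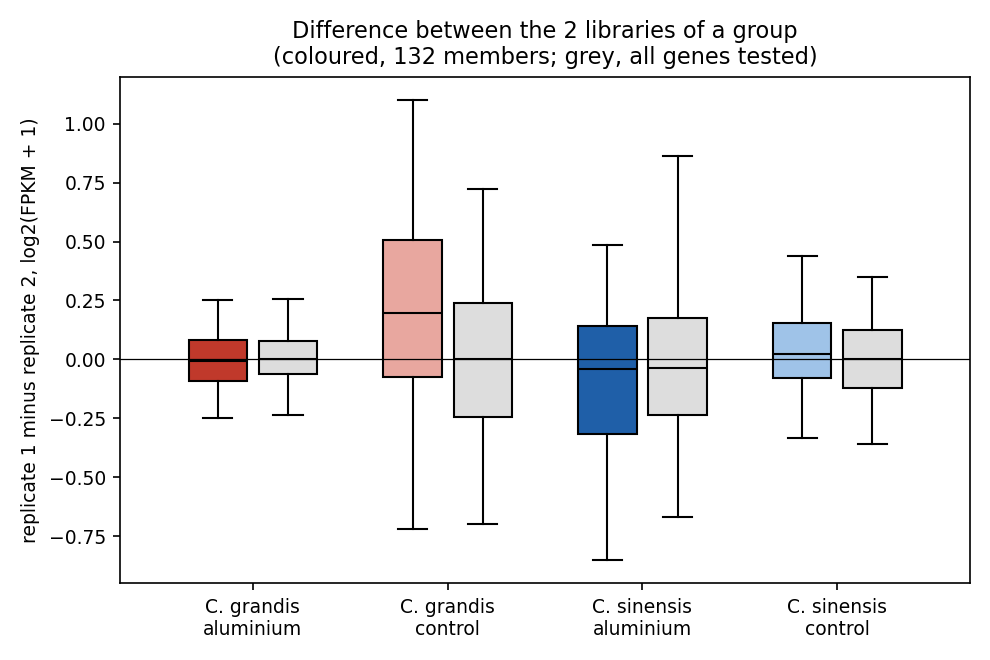
Replicate 1 minus replicate 2 on the log2(FPKM + 1) scale in each group, with coloured boxes for the 132 members and grey boxes for all genes tested; boxes span the middle 50%, lines mark medians and whiskers the 5th and 95th percentiles. The members' box of the C. grandis controls lies mostly above 0, and the boxes of C. grandis aluminium are the narrowest.

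The members were spread over all 9 numbered series of IDs, Cs1g to Cs9g. The shares ran from 0.49% of the genes tested in Cs9g, with 5 members, to 1.13% in Cs2g, with 20. Of the IDs beginning with orange1.1t, 9 were members, 0.387% of those tested. The median recovered length was 1373 bp for the members and 1720 bp for all genes tested, and the members ranged from 231 to 4172 bp.

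Some members were neighbours in the numbering. Of the 178 tested genes next to a member, 8 were members themselves, or 4.49%, where 0.808% of all genes tested were members. They formed 4 pairs, Cs1g11380 with Cs1g11390, Cs2g04720 with Cs2g04730, Cs3g06820 with Cs3g06830, and Cs7g19240 with Cs7g19250. Neighbours of like sequence can share reads, and whether these pairs do was not tested.

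Within a pair the levels could differ widely. Cs7g19240 stood at 1.83 and 1.46 FPKM in C. grandis aluminium leaves and 3.87 and 5.35 FPKM in the controls. Its neighbour Cs7g19250 stood at 129 and 131 FPKM with aluminium and 258 and 285 FPKM in the controls. Both were lower in C. grandis than in C. sinensis in control leaves, with log2 differences of -1.41 and -0.70 (limma adjusted p = 0.00132 and 0.00474).

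The species order could also turn within a pair. In control leaves Cs3g06820 stood at 4.55 and 4.31 FPKM in C. grandis and 9.61 and 10.7 FPKM in C. sinensis, a difference of -1.04 (limma adjusted p = 0.0012). Cs3g06830 stood at 260 and 200 FPKM in C. grandis and 115 and 103 FPKM in C. sinensis, a difference of 1.06 (limma adjusted p = 0.00165).

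Cs8g19450 and Cs8g19470 have 1 ID between them. Cs8g19450 had 7.32 and 5.34 FPKM in C. grandis aluminium leaves and 54.6 and 103 FPKM in the controls. In C. sinensis leaves there were 2.44 and 3.0 FPKM with aluminium and 15.7 and 16.8 FPKM in the controls. C. grandis was the higher species in both treatments. Cs8g19460, the gene between them, met the condition on C. grandis with a separation of 1.60 and missed that on C. sinensis at 1.21. It stood at 96.8 and 68.2 FPKM in C. sinensis aluminium leaves and 117 and 129 FPKM in the controls.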

How the data were processed

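Per the file headers, the authors deposited FPKM in 4 tables, one for each group, with 2 libraries apiece. Tools listed in the submitters' processing notes, with no role stated, were Bowtie, TopHat2, HTSeq and edgeR 1.18.0. The genome build was not given in the sources used here. Groups came from the sample titles. The members, lists and tests were chosen with earlier results of these data known. Ratios of FPKM gave back whole reads, and with them the length of each gene and the total of each library. For the 22312 IDs above 0 in several libraries, 100% of values lay within 0.01 of a whole number, and these IDs held at least 99.93% of every total. Levels are the deposited values.

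The species were compared by limma 3.58.1 (R 4.3.3) on log2(FPKM + 1) for the 16327 genes averaging at least 1 FPKM. The model had 1 mean for each group over all 8 libraries (4 residual degrees of freedom) and a trended prior spread. Its two-sided p-values were adjusted over all genes (Benjamini-Hochberg, 0.05). The scale understates changes of low genes. The code was tested on simulated data. Members were named by rank: the 2 with the largest smaller fall, the 2 with the highest control mean, the largest called species difference each way per treatment, the largest difference between falls each way, and the 2 nearest the threshold, with the 2 genes just outside it. Other IDs were chosen after their values were seen. Planned gene lists and tissue markers need gene names and were not used. Alternatives were other ratios, pseudocounts, scalings and bounds, voom, a replicate block, the libraries of 1 treatment alone and leaving out each library.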

Additional observations from a re-analysis of the deposited data

Results flagged for a closer look

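In 6 members the order of the species turned between the treatments, with no overlap of the libraries in either. The share of all genes tested that turned in this way was not counted. The difference between the falls was not tested, because the rule used the falls from which it is made. The value given is the log2 change with aluminium in C. sinensis less the change in C. grandis. C. grandis lay above C. sinensis in control leaves and below it in aluminium leaves for Cs2g20010 (1.05), Cs2g28180 (0.92), Cs5g03490 (0.62) and Cs7g11670 (0.66). C. grandis lay below C. sinensis in control leaves and above it in aluminium leaves for Cs1g10610 (-0.53) and Cs1g20713 (-0.34). The members were picked for this turn, so the values are a description. The difference, C. grandis minus C. sinensis, was -0.69 in aluminium and 0.37 in control leaves for Cs2g20010, with 0.18 in control leaves after median centring and 0.48 after quantile normalization. For Cs7g11670 it was -0.33 in aluminium and 0.34 in control leaves, with 0.15 and 0.19 in control leaves under these scalings. After centring neither control difference was called, and after quantile normalization only that of Cs2g20010 was. Under both scalings the libraries of Cs5g03490 no longer turned without overlap, while those of the other members did. In Cs2g28180 the aluminium libraries stood at 16.4 and 16.9 FPKM in C. grandis and 19.7 and 21.7 FPKM in C. sinensis, and the controls at 94.7 and 81.8 FPKM in C. grandis and 50.6 and 64.0 FPKM in C. sinensis.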

How the results depend on the processing

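The rule gave 132 genes as stated, 28 with a ratio of 2 and 458 with a looser ratio of 5 to 4. It gave 183 with a pseudocount of 0.1 and 136 without bounds on the mean. Median centring gave 162, of which 120 were shared, and quantile normalization 145, of which 117 were shared. With any 1 library left out it gave 147 to 259 genes. Members called between the species in control leaves numbered 47 to 84 with 1 library left out (78 with all), 76 with voom on recovered reads and 66 with the 4 control libraries alone. In aluminium leaves they numbered 41 to 87 with 1 library left out (72 with all), 41 with both C. grandis aluminium libraries merged into 1, 68 with voom and 77 with the 4 aluminium libraries alone. In all of these, more members were lower than higher in C. grandis. With the replicate number as a block the calls were 74 in control and 71 in aluminium leaves. Deviations of same-numbered libraries correlated across genes at 0.0078 in control and 0.0033 in aluminium leaves. Such values cannot exclude a shared batch, and the C. grandis aluminium pair differed little more than counting allows. The median change in C. grandis was -1.34 with a pseudocount of 0.1 and -1.32 to -1.05 with 1 library left out. In C. sinensis it was -1.17 after centring, -1.15 after quantile normalization and -1.10 to -0.98 with 1 library left out. The causes of these shifts were not tested. For the largest called species differences (Cs5g07550, orange1.1t02606 and, in both treatments, orange1.1t05997), chosen for their size, limma adjusted p ranged from 4.68e-05 to 0.0133 over the alternatives. With 2 libraries per group, few reads limit members at the lowest levels, such as Cs8g19470.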
